A study of Arabidopsis thaliana with 8 samples.

Results

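The plastid genome of Arabidopsis thaliana encodes core subunits of the photosynthetic complexes and part of the machinery that expresses them, and 69 of its genes are described here. They are the genes with a plastid locus tag whose probe set on the ATH1 array, a microarray of short oligonucleotides, was paired with exactly 1 gene. These 69 probe sets stand among 13513 with 1 gene and 22746 in all, controls left out. By symbol, 5 belong to photosystem I (psa), 15 to photosystem II (psb), 6 to the cytochrome b6f complex (pet), 6 to the ATP synthase (atp) and 1 to Rubisco (rbcL). A further 10 belong to the NADH dehydrogenase-like complex (ndh), 4 to the plastid-encoded RNA polymerase (rpo), 8 to the small ribosomal subunit (rps) and 7 to the large one (rpl). The other 7 are accD, ccsA, cemA, clpP, matK, ycf3 and ycf4. The genes were chosen by annotation and not by their values.

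Each of these complexes is a mosaic, with some subunits made in the plastid and the others encoded in the nucleus and imported. Plastid genes are mostly transcribed in clusters as long precursor RNAs, which are then cut, spliced, edited and trimmed. Photosynthesis genes are read mainly by the bacterial-type polymerase encoded by the rpo genes, while some housekeeping genes can also be read by a phage-type polymerase encoded in the nucleus. Transcript levels in plastids depend strongly on RNA stability, and plastid mRNAs have no stable poly(A) tail.

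The series compared cold and warm plants of the sfr3 mutant and the wild type, with 2 arrays in each of 4 groups. The groups are sfr3 in the cold, sfr3 in the warm, wild type in the cold and wild type in the warm. Col-0 served as wild type. The sfr3 line came from ethyl methanesulfonate (EMS) mutagenesis in that background, so the single mutant line may carry other mutations. Per the labels all plants, at growth stage 1.14, had grown in compost for 38 days under short days (8 h light, 16 h dark, 100 microEinstein) at 70% humidity and 20 °C. For all groups the labels also give a seed treatment of 48 h at 4 °C. How cold the cold treatment of the plants was and how long it lasted is not stated in the labels. The sfr3 material was described as the aerial parts and the wild-type material as the entire rosette, so that genotype and the wording of the harvest cannot be told apart. Fewer cells of a type and less RNA per cell cannot be told apart in such whole-tissue samples.

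All values are MAS5 signals, linear intensities that were scaled alike on every array. All 69 probe sets were above each array's own level of the dark control probe sets on all 8 arrays, and all 69 were in the tested set of 13648. That level was 35.4 on sfr3-cold replicate 1, against 6.37 to 11.3 on the other arrays, so the bar was not the same on every array. Differences are on the scale of log2(signal + 2.17), and a gene is said to have risen or fallen only where its adjusted p from limma was below 0.05. A signal depends on the probes as well as on the RNA, so the levels of different genes are not set against each other.

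Of the arrays, 2 stood apart. On sfr3-cold replicate 1 the median signal was 52.4, against 36.6 to 39.0 on the other 7 arrays, and the added hybridisation controls were 5.75 times their level on the others. On sfr3-warm replicate 1 the actin 3'/5' signal ratio was 4.69, against 1.38 to 2.84 elsewhere, while its GAPDH ratio of 1.03 lay within the 0.836 to 1.23 of the others. Of the listed markers of leaf mesophyll 3 of 11 had a probe set: RCA and LHCB4.1 had signals of 5760 to 9165 on all arrays, and LHCB4.2 had 2687 to 7740 and fell in the cold in sfr3 (-0.92, adjusted p = 0.0384). The guard cell gene FMA had 36.0 to 77.9. Of the root markers, PYK10 fell in the cold in sfr3 (-1.55, adjusted p = 0.0218) and in wild type (-2.33, adjusted p = 0.00342), within a range of 28.8 to 202. The other root marker, EXPA7, was too dim to be tested. It had 93.23 and 25.11 in sfr3-cold plants, against 6.32 and 5.43 in sfr3-warm plants, and 25.2 and 25.6 in wildtype-cold plants, against 12.5 and 18.9 in wildtype-warm plants. The part of these markers in the results for cold was not tested.

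By their median, the 69 plastid transcripts lay highest and lowest on the same 2 arrays. Relative to the wildtype-warm mean, the median log2 difference of the 69 genes was 0.43 on sfr3-cold replicate 1 and -0.28 on sfr3-cold replicate 2. It was -0.84 on sfr3-warm replicate 1 and 0.06 on sfr3-warm replicate 2. The wildtype-cold arrays had medians of -0.18 and 0.05. A further 8 plastid probe sets were paired with several gene entries and are not among the 69. They did not follow this order, with medians of -0.44 and -0.58 on the sfr3-cold arrays and -0.32 and -0.04 on the sfr3-warm arrays. On the wildtype-cold arrays their medians were -0.39 and -0.30. More than 2-fold above the wildtype-warm mean were 14 of the 69 genes on sfr3-cold replicate 1, against 1 on its partner, where 9 were more than 2-fold below. Of all 13648 probe sets tested, 2663 were that far above on sfr3-cold replicate 1. On its partner 1522 of them were that far above and 1818 that far below. More than 2-fold below the wildtype-warm mean were 28 of the 69 genes on sfr3-warm replicate 1, against 0 on its partner. Of all 13648 probe sets tested, 271 and 91 were that far below on these arrays. Between the replicates of sfr3 in the warm, 66 of 69 genes were lower on replicate 1, with a median ratio of 0.562. In the sfr3-cold pair 60 of 69 genes were higher on replicate 1, with a median ratio of 1.57. The 69 genes made up 7.23% and 3.83% of all signal on the sfr3-cold arrays, 2.46% and 4.30% in sfr3-warm, 3.52% and 4.04% in wildtype-cold, and 4.15% and 4.00% in wildtype-warm. What the control values had to do with these shifts was not tested, and results below are in part also given without these 2 arrays. Leaving out an array can leave 1 sfr3 array in a group, which is then assumed to vary like the other groups. With both arrays that stand apart left out, cold against warm in sfr3 is 1 array against 1 array. The spread then comes from the wild-type arrays alone, so a call there has no replicates in sfr3 behind it.

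**Figure D1:**
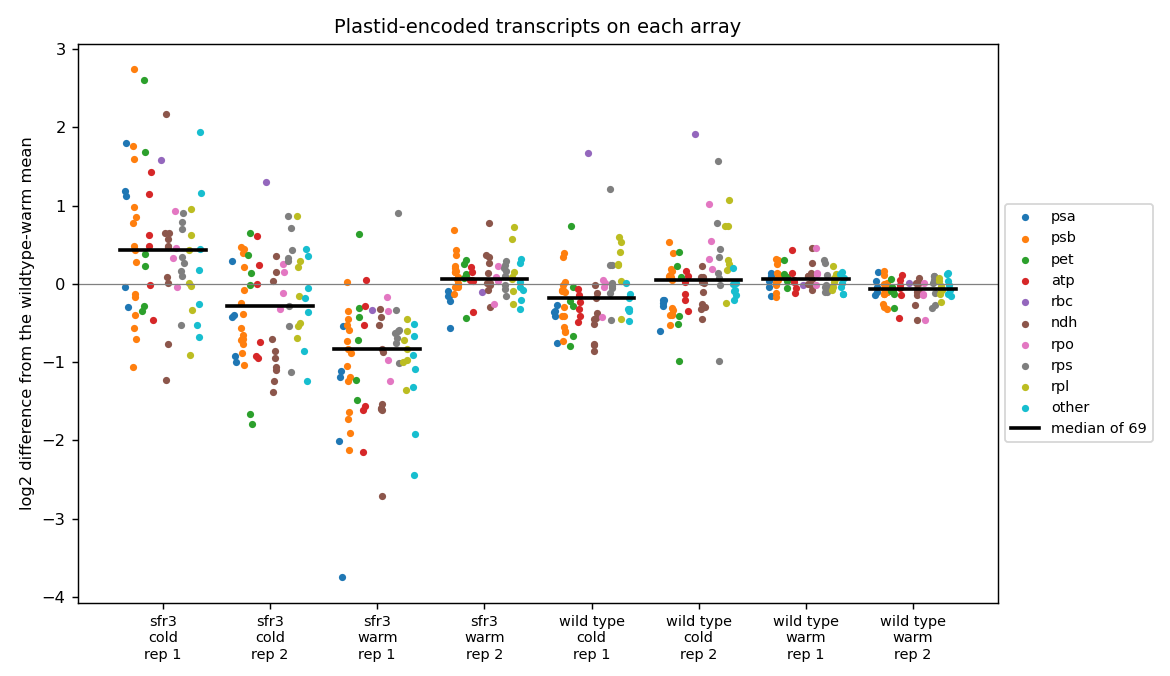
Each point is 1 of the 69 plastid-encoded genes on 1 array, as the log2 difference from its wildtype-warm mean, coloured by symbol prefix, with a black bar at the median of the 69. The medians are 0.43 on sfr3-cold replicate 1 and -0.84 on sfr3-warm replicate 1, and between -0.28 and 0.07 on the other 6 arrays, where the purple rbcL point stands at the top of 3 cold arrays.

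In wild type, 2 of the 69 genes, rbcL and rps16, were called as higher in the cold and none as lower. Over all 13648 probe sets tested, 26.3% were called in this comparison, 13.0% higher and 13.3% lower. At an unadjusted p below 0.05 the same 2 genes of the 69 passed, against 5088 of all 13648 probe sets tested. The median log2 difference of the 69 was -0.07, against -0.00 over all probe sets. These counts depend on the spread shared with the sfr3 arrays. Without sfr3-cold replicate 1 or 2, 3 genes were higher and 2 lower in both cases, where 45.5% and 45.4% of all probe sets were called. With both arrays that stand apart left out 7 were higher and 12 lower, where 47.7% were called, and a fit of the wild-type arrays alone also gave 7 and 12. Without both, the higher genes were rbcL, rps16, petN, psbB, rpl14, rpl22 and rpl36. The lower ones were psaC, psbA, psbE, psbF, psbL, petG, petL, atpH, ndhD, ndhH, ndhK and rps14. For the fit of the wild-type arrays alone the share of all probe sets called is not given here. Without wildtype-cold replicate 2 the log2 value of rps16 was 1.22 from a single wildtype-cold array, against 1.39 with both. Statements below that a gene was not called in wild type refer to the fit of all 8 arrays.

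In sfr3, cold raised 8 of the 69 genes and lowered 2, where 31.2% of all probe sets were called, 14.9% higher and 16.4% lower. The genes that rose were psaJ, matK, rbcL, petB, psbI, ccsA, atpB and rps16, and those that fell were rps14 and psbJ. The median of the 69 was 0.59, against 0.06 over all probe sets, and 54 of 69 had a value above 0. Without both arrays that stand apart, 4 genes rose and 24 fell, at 34.7% called among all probe sets, and the median was -0.29. The 4 were ccsA, rps18, rbcL and rps16. Leaving out 1 array moved the counts in both directions. There were 7 higher and 5 lower without sfr3-cold replicate 1 (38.3% of all probe sets called) and 32 higher and 3 lower without sfr3-cold replicate 2 (58.5%). There were 1 higher and 4 lower without sfr3-warm replicate 1 (14.9%) and 24 higher and 1 lower without sfr3-warm replicate 2 (16.0%).

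The transcript of rbcL, which encodes the large subunit of the carbon-fixing enzyme Rubisco, had signals of 1277 and 1048 in sfr3-cold plants, against 336.5 and 396.4 in sfr3-warm plants. In wild type it had 1363 and 1607 in the cold, against 419.9 and 430.6 in the warm. All 4 cold arrays were above all 4 warm arrays, with no overlap. The log2 difference was 1.66 in sfr3 (SE 0.19, adjusted p = 3.17e-04, limma) and 1.79 in wild type (SE 0.19, adjusted p = 2.06e-04, limma). Across 20 other settings the call held in all 20 in both genotypes, with log2 values of 1.40 to 1.80 in sfr3 and 1.68 to 1.91 in wild type. Between the genotypes in the cold rbcL differed by -0.35 (SE 0.19, adjusted p = 0.427), with both sfr3 arrays under both wild-type arrays. Its neighbours among the 69 on the plastid genome are atpB and accD. In wild type in the cold atpB, the beta subunit of the ATP synthase, stood at log2 0.01 (adjusted p = 0.981), and accD, a subunit of the plastid acetyl-CoA carboxylase, had -0.34 (adjusted p = 0.622).

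The rps16 transcript, for a protein of the small ribosomal subunit, had signals of 168.5 and 160.3 in sfr3-cold plants, against 63.67 and 95.41 in sfr3-warm plants. In wild type it had 227.3 and 291.4 in the cold, against 105.3 and 88.74 in the warm. All 4 cold arrays again lay above all 4 warm arrays. The rise was 1.05 on the log2 scale in sfr3 (SE 0.25, adjusted p = 0.0122) and 1.39 in wild type (SE 0.25, adjusted p = 0.00337). Without sfr3-warm replicate 1 the value in sfr3 was 0.77 (adjusted p = 0.0994), and without wildtype-cold replicate 2 that in wild type was 1.22 (adjusted p = 0.0537).

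The rule that all 4 cold arrays lie on the same side of all 4 warm arrays picked 3 higher genes, rbcL, rps16 and petN, where 21.3% of all probe sets were higher by it. It picked 2 lower genes, rps14 and psbJ, where 22.1% of all probe sets were lower. Of these, petN, a small subunit of the cytochrome b6f complex, is named because of this separation, after its values were seen. It had 589.1 and 105.0 in sfr3-cold plants, against 70.7 and 102.4 in sfr3-warm plants, and 160.1 and 126.5 in wildtype-cold plants, against 101.5 and 89.16 in wildtype-warm plants. The lowest cold value was thus just above the highest warm value. It was not called in sfr3 (log2 1.53, adjusted p = 0.0906) or in wild type (0.57, adjusted p = 0.569).

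Going the other way, rps14, another gene of the small ribosomal subunit, had 96.66 and 63.14 in sfr3-cold plants, against 264.1 and 150.7 in sfr3-warm plants. In wild type it had 101.4 and 69.56 in the cold, against 169.6 and 116.2 in the warm. It fell by 1.33 on the log2 scale in sfr3 (SE 0.35, adjusted p = 0.0198), while its value of -0.73 in wild type did not pass (adjusted p = 0.165). Without sfr3-warm replicate 1 the value in sfr3 was -0.93 (adjusted p = 0.161). With the replicate number as a block, the value in wild type passed (adjusted p = 0.0406). The difference between the genotypes was not called (interaction -0.60, adjusted p = 0.748).

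The psbJ transcript, for a small subunit of photosystem II, had 998.8 and 940.1 in sfr3-cold plants, against 1503 and 2378 in sfr3-warm plants. In wild type it had 1111 and 1120 in the cold, against 1836 and 1181 in the warm. It fell by 0.96 on the log2 scale in sfr3 (SE 0.27, adjusted p = 0.0255), and its value in wild type was -0.40 (adjusted p = 0.327). Without sfr3-warm replicate 2 the value in sfr3 was -0.63 (adjusted p = 0.177), and without wildtype-cold replicate 1 or 2 the adjusted p was 0.0521 in both cases.

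The psbJ gene ends a cluster with psbE, psbF and psbL, where psbE and psbF encode the subunits of cytochrome b559 in photosystem II. The values of psbE, psbF and psbL are given because of this cluster, after they were seen. The psbL value was above 0 in sfr3 (log2 0.31, adjusted p = 0.483, limma) and -0.47 in wild type (adjusted p = 0.356, limma). Its signal was 781.7 and 495.0 in sfr3-cold plants, against 349.2 and 715.6 in sfr3-warm plants. In wild type psbL had 439.7 and 495.4 in the cold, against 694.1 and 600.5 in the warm. The psbE signal was 1027 and 1126 in sfr3-cold plants, against 938.8 and 1954 in sfr3-warm plants, and 1094 and 1166 in wildtype-cold plants, against 1791 and 1559 in wildtype-warm plants. For psbE, sfr3-warm replicate 1 was the single warm array that was not above all cold arrays. The psbF signal was 1270 and 1613 in sfr3-cold plants, against 1768 and 2994 in sfr3-warm plants, and 1599 and 2113 in wildtype-cold plants, against 2771 and 2558 in wildtype-warm plants. Neither was called in either genotype, with log2 values of -0.33 for psbE and -0.68 for psbF in sfr3 and -0.56 and -0.53 in wild type. Without sfr3-warm replicate 1 both fell in sfr3, psbE by 0.86 (adjusted p = 0.0436) and psbF by 1.06 (adjusted p = 0.0446), where 14.9% of all probe sets were called.

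**Figure D2:**
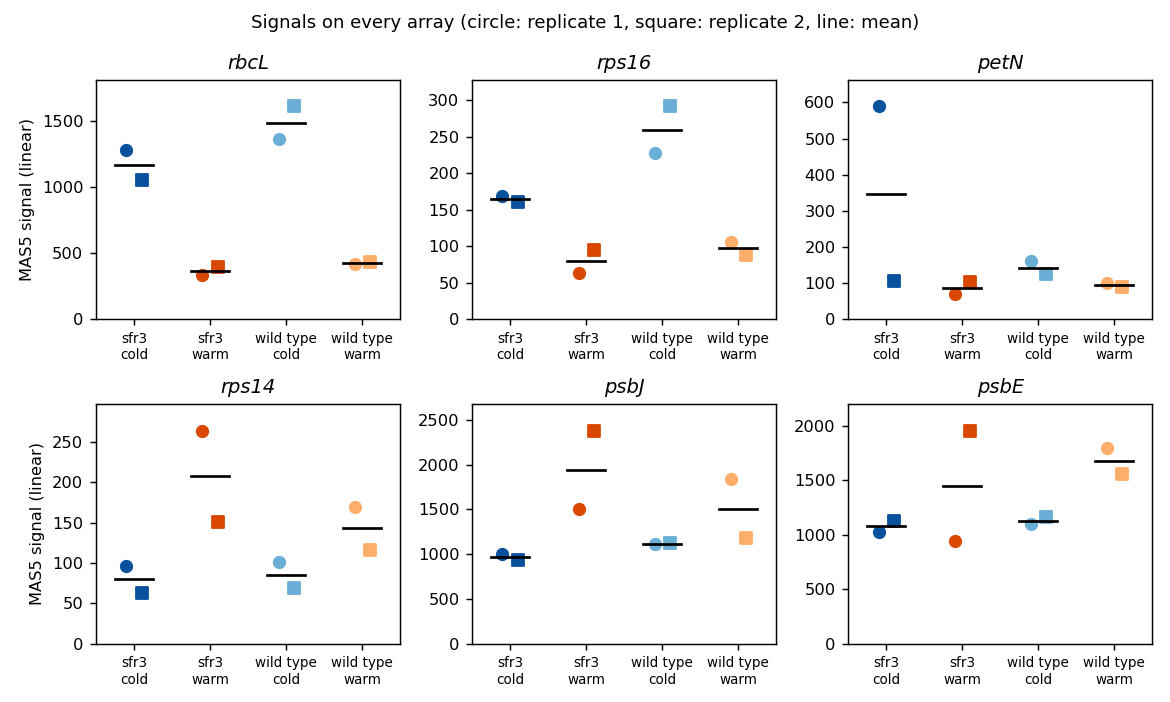
MAS5 signals (linear axes from 0) on all 8 arrays for single plastid-encoded genes, with sfr3 left of wild type and cold left of warm. For rbcL the 4 cold arrays lie between 1048 and 1607 and the 4 warm arrays between 336.5 and 430.6.

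In photosystem I, where psaA and psaB encode the core proteins and psaC carries iron-sulfur clusters, 1 of 5 genes rose in sfr3 and none was called in wild type. All 5 had values above 0 in sfr3 (median log2 1.01) and below 0 in wild type (median -0.30). The median in sfr3 was -0.28 without both arrays that stand apart, so the opposite signs rest on those arrays. The gene that rose was psaJ, a small subunit, with 12410 and 4359 in sfr3-cold plants, against 1561 and 3339 in sfr3-warm plants. In wild type psaJ had 2952 and 3088 in the cold, against 3477 and 3643 in the warm. Its log2 difference in sfr3 was 1.69 (SE 0.48, adjusted p = 0.0260). Leaving out single arrays gave 0.93 to 2.44 for psaJ, and the call was lost without sfr3-warm replicate 1 (1.14, adjusted p = 0.199), wildtype-warm replicate 1 (0.0515) or wildtype-warm replicate 2 (0.0516). Its value was 0.38 without both arrays that stand apart (adjusted p = 0.175). The psaB signal was 13330 and 4653 in sfr3-cold plants, against 4230 and 5501 in sfr3-warm plants, and 4772 and 5204 in wildtype-cold plants, against 5534 and 6803 in wildtype-warm plants. The values of psaB were not called (0.71 in sfr3, adjusted p = 0.228, and -0.30 in wild type, adjusted p = 0.673).

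In photosystem II 1 of 15 genes rose in sfr3, psbI, and 1 fell, psbJ, and none was called in wild type. The median log2 difference of the 15 was 0.58 in sfr3 and -0.01 in wild type. The small subunit psbI had 5781 and 2606 in sfr3-cold plants, against 1320 and 2187 in sfr3-warm plants, and 1795 and 2047 in wildtype-cold plants, against 1939 and 1874 in wildtype-warm plants. It rose by 1.19 in sfr3 (adjusted p = 0.0355). That call was lost without sfr3-cold replicate 1 (0.62, adjusted p = 0.0736), without sfr3-warm replicate 1 (0.83, adjusted p = 0.237), without both (0.25, adjusted p = 0.363), and when either array of either wild-type group was left out (0.0638 to 0.0658). The psbM signal was 42190 and 8735 in sfr3-cold plants, against 4961 and 8507 in sfr3-warm plants, and 4720 and 6699 in wildtype-cold plants, against 6257 and 6342 in wildtype-warm plants. Only sfr3-cold replicate 1 was far from the rest, and the log2 value in sfr3 of 1.56 was not called (adjusted p = 0.0808). Without both arrays that stand apart, 1 sfr3-cold array was set against 1 sfr3-warm array. There psbH, psbI, psbM and psbZ had higher signals in the cold. The other psb genes had lower ones, among them psbA, psbB, psbC and psbD, which encode the reaction centre proteins and the inner antenna.

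Of the 6 genes of the cytochrome b6f complex, 1 rose in sfr3 and none was called in wild type. That gene was petB, which encodes cytochrome b6. It had 19080 and 9346 in sfr3-cold plants, against 3622 and 6249 in sfr3-warm plants, and 5797 and 6942 in wildtype-cold plants, against 5704 and 6182 in wildtype-warm plants. The difference was 1.49 in sfr3 (SE 0.38, adjusted p = 0.0168) and 0.10 in wild type. Leaving out sfr3-warm replicate 1 ended the call of petB (adjusted p = 0.145), as did leaving out both arrays that stand apart (0.58, adjusted p = 0.0842), and leaving out single arrays gave 0.97 to 2.00. Without both, the median of the 6 in sfr3 was -0.05, against 0.05 with all arrays.

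Of the 6 genes of the ATP synthase, all had values above 0 in sfr3 (median 0.62), and atpB rose. It had 20750 and 11790 in sfr3-cold plants, against 6318 and 7984 in sfr3-warm plants, and 7340 and 8243 in wildtype-cold plants, against 7092 and 8350 in wildtype-warm plants. Both sfr3-cold arrays were above the other 6. The difference in sfr3 was 1.14 (SE 0.31, adjusted p = 0.0236). The call was lost without sfr3-warm replicate 1 (adjusted p = 0.159) or 2 (0.0703) and without wildtype-cold replicate 1 (0.0514) or 2 (0.0510), and leaving out single arrays gave 0.73 to 1.55. With the 2 outlying arrays left out the value of atpB in sfr3 was 0.56, and the median of the 6 was -0.40.

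None of the 10 ndh genes, whose products carry electrons around photosystem I, was called in either genotype. Their median log2 difference was 0.29 in sfr3 and -0.24 in wild type, where 9 of 10 were below 0. The ndhI signal was 7800 and 5516 in sfr3-cold plants, against 3425 and 5473 in sfr3-warm plants, and 3655 and 5036 in wildtype-cold plants, against 4899 and 5004 in wildtype-warm plants. Without both arrays that stand apart, the median of the 10 ndh genes in sfr3 was -0.95, from 1 array against 1 array. The direction of ndhH depended on the sfr3-warm array kept, which is why it is named. It had 97.48 and 87.49 in sfr3-cold plants, against 33.32 and 232.4 in sfr3-warm plants, and 126 and 168.5 in wildtype-cold plants, against 279.5 and 190.9 in wildtype-warm plants. With both arrays the log2 value in sfr3 was 0.05 (adjusted p = 0.960). Against a single sfr3-warm array the log2 value was -1.31 without replicate 1 and 1.41 without replicate 2, which restates how far these 2 arrays differ.

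Of the 4 rpo genes none was called, with medians of 0.53 in sfr3 (-0.07 without both arrays that stand apart) and 0.22 in wild type. The alpha subunit gene rpoA had 1848 and 2267 in sfr3-cold plants, against 1503 and 2236 in sfr3-warm plants, and 1419 and 2170 in wildtype-cold plants, against 1888 and 1927 in wildtype-warm plants, and its groups overlapped. Among the 8 rps genes, rps16 rose in both genotypes and rps14 fell in sfr3, and the other 6 were not called. The rps4 transcript had 3817 and 2332 in sfr3-cold plants, against 2100 and 3251 in sfr3-warm plants, and 3135 and 3354 in wildtype-cold plants, against 3171 and 3645 in wildtype-warm plants. None of the 7 rpl genes was called, and 6 of 7 in wild type had values above 0 (median 0.29). The median of the 7 in sfr3 was 0.39, and without both arrays that stand apart it was -0.28. The rpl33 transcript had 5000 and 4542 in sfr3-cold plants, against 2439 and 4100 in sfr3-warm plants, and 3809 and 4422 in wildtype-cold plants, against 3610 and 3797 in wildtype-warm plants. It was not called in sfr3 (0.59, adjusted p = 0.119) or in wild type (0.15, adjusted p = 0.750).

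Of the 7 remaining genes, matK and ccsA rose in sfr3 and none was called in wild type. The matK gene encodes a splicing factor of plastid introns. It had 10040 and 3343 in sfr3-cold plants, against 1235 and 2658 in sfr3-warm plants, and 2104 and 2457 in wildtype-cold plants, against 2404 and 2857 in wildtype-warm plants. The difference in sfr3 was 1.68 (SE 0.49, adjusted p = 0.0303). The call of matK was lost without sfr3-cold replicate 1 (0.88, adjusted p = 0.0542), without sfr3-warm replicate 1 (1.12, adjusted p = 0.221), without both (0.33, adjusted p = 0.279) and when a wild-type array was left out (0.0542 to 0.0573 for the 4 arrays). The ccsA gene acts in the attachment of heme to c-type cytochromes. It had 9272 and 5614 in sfr3-cold plants, against 2892 and 3593 in sfr3-warm plants, and 4156 and 4157 in wildtype-cold plants, against 4166 and 4105 in wildtype-warm plants. The rise in sfr3 was 1.16 (SE 0.27, adjusted p = 0.0112), and it was lost without sfr3-warm replicate 1 (1.00, adjusted p = 0.0981).

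**Figure D3:**
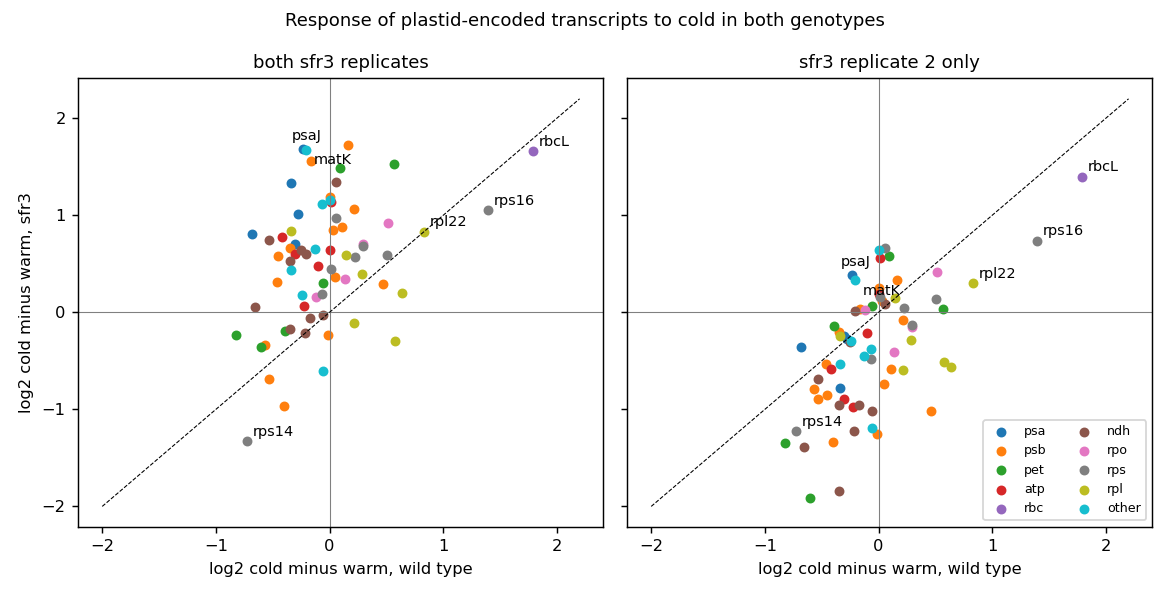
Log2 difference between cold and warm in wild type (horizontal) and in sfr3 (vertical) for the 69 genes, with both sfr3 replicates on the left and sfr3 replicate 2 alone on the right, and a dashed line of equal values. On the left most points lie above the line (interaction above 0 for 57 of 69), and on the right the median in sfr3 is -0.29, while rbcL and rps16 are at the upper right in both panels.

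Between sfr3 and wild type in the cold, none of the 69 genes was called, where 0.125% of all probe sets were. An unadjusted p below 0.05 was reached by 12 of the 69, against 1775 of all 13648 probe sets tested. The median of the 69 was 0.13. The smallest p-values were those of atpB (1.01, SE 0.31, adjusted p = 0.339) and ycf3, which acts in the assembly of photosystem I (-0.90, SE 0.28, adjusted p = 0.340). The ycf3 signal was 239 and 161.9 in sfr3-cold plants, against 307.8 and 440.8 in wildtype-cold plants, without overlap, and 240.7 and 373.4 in sfr3-warm plants, against 405.6 and 363.6 in wildtype-warm plants. Without sfr3-cold replicate 2 the count was 20 higher and 1 lower, where 39.4% of all probe sets were called. Without both arrays that stand apart it was 1 higher, rps18, and 9 lower, where 1.08% were called.

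Between sfr3 and wild type in the warm, none of the 69 genes was called, where 0.0% of all probe sets were. An unadjusted p below 0.05 was reached by 4 of the 69, against 102 of all 13648 probe sets tested. Of the 69, 63 had a value below 0, and the median was -0.38. The median was 0.06 without sfr3-warm replicate 1 and -0.84 without sfr3-warm replicate 2. The smallest p-values were those of psaC (-1.28, SE 0.43, adjusted p = 1.0) and accD (-1.12, SE 0.42, adjusted p = 1.0). The psaC signal was 212.7 and 581.9 in sfr3-warm plants, against 947.1 and 780.7 in wildtype-warm plants. The accD signal was 222.1 and 679.7 in sfr3-warm plants, against 926.8 and 774.3 in wildtype-warm plants. For both genes the sfr3 arrays were below the wild-type arrays, and replicate 1 was far below replicate 2. In the cold psaC had 835 and 454 in sfr3, against 507.7 and 564.8 in wild type, and accD had 590.4 and 468 in sfr3, against 609.2 and 734.4 in wild type. Without sfr3-warm replicate 2, psaA was called (-3.75, adjusted p = 0.0423), where 0.00733% of all probe sets were, from its signal of 160.3 on sfr3-warm replicate 1, against 2239 and 2130 in wildtype-warm plants.

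In the interaction the wild-type response to cold is subtracted from the sfr3 response. For it none of the 69 genes was called, where 0.0366% of all probe sets were. An unadjusted p below 0.05 was reached by 7 of the 69, against 803 of all 13648 probe sets tested. The median of the 69 was 0.58, and 57 of 69 values were above 0. The smallest p-values were those of ccsA (1.15, SE 0.38, adjusted p = 0.733) and psaJ (1.92, SE 0.67, adjusted p = 0.733). For rbcL the interaction was -0.14 (SE 0.26, adjusted p = 0.883). Without sfr3-cold replicate 2, 23 genes were higher and 27.9% of all probe sets were called. Without both arrays that stand apart the median was -0.32 and 1 gene, psbB, was called as lower, where 0.169% of all probe sets were called. The comparisons share arrays, so their values are not independent of each other.

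The replicate differences were uneven along the gene clusters that are transcribed together. In sfr3-warm plants the ratio of replicate 1 to replicate 2 was 0.0852 for psaA, 0.769 for psaB and 1.75 for rps14, which follow each other in this order on 1 precursor. Along the cluster of psbB, psbT, psbH, petB and petD the ratios were 0.304, 0.337, 0.219, 0.580 and 1.44. Along psbD, psbC and psbZ they were 0.288, 0.330 and 0.566. The cluster of rps15, ndhH, ndhA, ndhI, ndhG, ndhE, psaC and ndhD went the other way, with 0.725 for the first gene, 0.143 for ndhH and 0.330 for the last. For the end genes rps14 and petD the ratio was above 1 in every group, not in sfr3-warm alone. In sfr3-cold, wildtype-cold and wildtype-warm it was 1.53, 1.46 and 1.46 for rps14 and 1.33, 1.18 and 1.54 for petD. The last gene had a higher ratio than the first in 7 of 12 clusters in sfr3-warm, in 5 in sfr3-cold, in 6 in wildtype-cold and in 7 in wildtype-warm. The ratio increased at each step in 4, 2, 3 and 2 clusters in the same order of groups. These counts use the gene positions of the annotation for the order. The place of rps15 was corrected after the ratios had been seen, and with rps15 last, as first listed, the counts of a higher last gene were 8, 5, 7 and 6. The actin 3'/5' ratio of 4.69 stood on the same array, sfr3-warm replicate 1, and its part in these ratios was not tested.

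**Figure D4:**
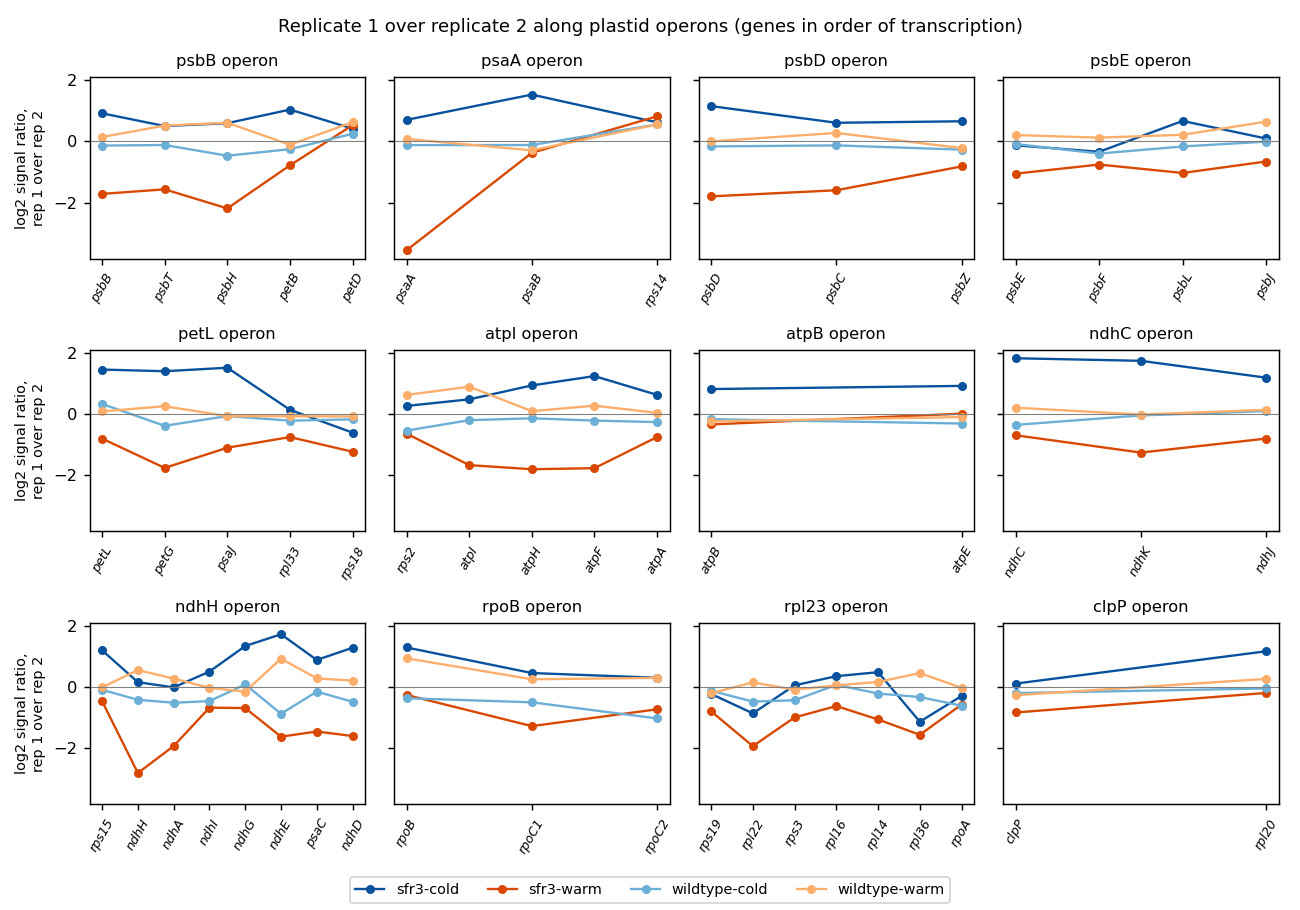
Log2 ratio of the signal on replicate 1 over replicate 2 (vertical, all panels on 1 scale) for the genes of 12 plastid clusters in order of transcription, with a line for each group. The sfr3-warm line starts lowest at psaA, with a ratio of 0.0852, and ends above 0 at rps14, with 1.75, and no such common slope is seen over the 12 panels.

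Few of the nuclear genes that complete these complexes were paired with a probe set. Of the nuclear subunits listed, 2 of 12 for photosystem I, 3 of 12 for photosystem II, 1 of 4 for the cytochrome b6f complex with plastocyanin and 1 of 3 for the ATP synthase were tested, and none was called in either genotype. Of 5 for Rubisco and its activase 1 was tested, RCA, and it was not called (0.26 in sfr3 and -0.35 in wild type). Of 4 listed NDH subunits 2 were tested, and NdhN rose in sfr3 (0.65, adjusted p = 0.0313) and in wild type (0.77, adjusted p = 0.0175). Of 15 light-harvesting proteins 3 were tested, and LHCB4.2 fell in sfr3 (-0.92, adjusted p = 0.0384) and was not called in wild type (-0.66, adjusted p = 0.124). None of the 8 listed sigma factors and phage-type polymerases, the 6 proteins bound to the plastid polymerase or the 7 plastid RNA-binding and decay proteins was tested.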

How the data were processed

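The deposited table holds linear MAS5 intensities, made with MAS5 and GCOS per the submitters' processing notes, which name no versions, and the 2% trimmed mean was 100 on every array as checked. Labelling was by the biotin protocol of 1 cycle, per the labels' protocols, which do not say how plastid RNA was primed. After 64 control probe sets were left out, a pseudocount of 2.17, which is the 10th percentile over the table, went in before log2. The brightest 60% by mean signal (13648 probe sets, mean at least 26.7) were fitted in limma 3.58.1 (R 4.3.3) with a mean per group over 8 arrays and an intensity trend (4 residual and 5.17 prior degrees of freedom). The 5 comparisons were adjusted by Benjamini-Hochberg over all probe sets tested, two-sided, and called below 0.05. The method was tested on simulated data, in which the noise took a random sign for each probe set. A shift shared by many genes on an array was not simulated, so that test does not bear on such shifts. Nothing says that replicates came from separate plants, so p-values reflect only how far these samples differ, and that spread may be technical. The number of arrays limits the precision.

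Gene names came from the platform annotation and, for names and gene order only, a TAIR10.1 gene table. Given with every array's value were, for each symbol prefix, the gene with the highest mean signal and, for each comparison, the called genes with the largest changes (up to 3 each way) or, with none called, the 2 with the smallest p. The other genes named are said to be so or are counted. The dark level is the 95th percentile of control probe sets expected to stay dark. The genes and lists were chosen with earlier results of these data known, and the order in 1 gene cluster was corrected after its values were seen. Other settings were the pseudocount, the filter, normalization, moderation, array weights, the arrays fitted, a replicate block and leaving out each array.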

Additional observations from a re-analysis of the deposited data

Results flagged for a closer look

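The hybridisation controls, transcripts added to every sample, were at 5.75 times their level on the other arrays on sfr3-cold replicate 1, a signal outside the genes compared here. On the same array 60 of the 69 plastid-encoded genes were higher than on sfr3-cold replicate 2, and the relation was not tested.

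The control probe set for cytosolic 25S ribosomal RNA had mean signals of 2808 in sfr3-cold, 2303 in sfr3-warm and 1596 in wildtype-cold plants, with every array above both wildtype-warm arrays (1014 and 731). Its highest values, 3904 and 2936, were on sfr3-cold replicate 1 and sfr3-warm replicate 1. On these arrays the median of the 69 plastid-encoded genes shifted in opposite directions. The difference was not tested.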

How the results depend on the processing

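The count of called plastid-encoded genes for cold in wild type, 2, was 8 with array weights (3 higher and 5 lower) and 19 when only the groups compared were fitted (7 higher and 12 lower). For cold in sfr3 the count of 10 was 6 with quantile normalization (3 higher and 3 lower), 6 without the intensity trend, 5 with array weights and 1 with only the groups compared. The shares of all probe sets called under these settings are not given here. Whether the changes in count were particular to the plastid-encoded genes was thus not tested. Leaving out 1 array, or both arrays that stand apart (an alternative chosen after seeing the data), gave 1 to 19 for cold in wild type (the 19 where 47.7% of all probe sets were called) and 5 to 35 for cold in sfr3 (14.9% called beside the 5 and 58.5% beside the 35). It gave 0 to 21 for sfr3 against wild type in the cold, 0 to 1 in the warm and 0 to 23 for the interaction. Leaving out both arrays that stand apart leaves 1 array in each sfr3 group, so the counts of that fit rest on the spread of the wild-type arrays. No gene called with all 8 arrays turned its direction in that comparison. Other genes did: for cold in sfr3 atpF, atpH, ndhK, psbA and psbD were called as higher without sfr3-cold replicate 2 and as lower without both. Of the values for single genes and medians, 387 kept their side of the threshold or moved little, 57 were no longer called, 4 became called and 9 medians moved. Fitting only the groups compared gave no interaction.

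The labels give all groups the same replicate numbers, but same-numbered arrays did not deviate together (r between -0.0867 and 0.0525 over all probe sets, and between -0.164 and 0.297 over the 69 genes, for the 6 pairs of groups), so the numbers were not taken to pair the samples. With the replicate block, 3 genes were called for cold in wild type, 11 for cold in sfr3 and 0 in the other comparisons. The shares of all probe sets called with the block are not given here.

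With 2 arrays a group, a call rests on a spread shared by all groups, and for these genes the sfr3 replicates differed most. Of the 10 genes called for cold in sfr3, each but rbcL lost its call without sfr3-warm replicate 1 or without sfr3-warm replicate 2.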
